A study of Mus musculus with 6 samples.

Results

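The nuclear-encoded subunits of the oxidative phosphorylation complexes were examined in the livers of mice in which the long non-coding RNA Hnf1aos1 had been targeted. These genes were chosen by symbol from the deposited count table: the Nduf subunits of complex I, the Sdh subunits of complex II, the Uqcr subunits of complex III, the Cox subunits of complex IV and the Atp5 subunits of complex V, with symbols marked -ps left out. RefSeq gives 2 of the chosen genes, Ndufa11b and Ndufs6b, as pseudogenes, and neither had enough counts for a test. The choice gave 89 of 40803 mouse genes, of which 41 belong to complex I, 4 to complex II, 8 to complex III, 19 to complex IV and 17 to complex V. Ndufa4, named as a complex I subunit, was counted with complex IV, where its protein sits. Cox7a2l, an assembly or associated factor, matched the symbols and is counted among the subunits of complex IV. Of the 89 genes, 77 had enough counts to be tested among 16327 genes, and the other 12 were isoforms and gene copies with few or no counts.

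Total liver RNA was sequenced from 6 mice, with 1 library per mouse. All were male C57BL6 mice of about 6 weeks at injection, and their livers were collected 4 weeks later. In the rAAV8-Hnf1aos1 group, 3 mice received through the tail vein a recombinant adeno-associated virus of serotype 8, which enters hepatocytes, with a short hairpin RNA against Hnf1aos1. In the rAAV8-Scramble group, 3 mice received the same virus with a scrambled hairpin, so both groups carried virus, a U6-driven hairpin and a vector-encoded EGFP. The mice were fed normally, and no uninjected mice were sequenced. The comparison asks how hepatic gene expression differs when Hnf1aos1 is reduced.

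Oxidative phosphorylation takes place in the inner mitochondrial membrane. Complexes I and II pass electrons from NADH and succinate to coenzyme Q, complex III hands them to cytochrome c, and complex IV reduces oxygen, while complexes I, III and IV pump protons whose return flow drives ATP synthesis by complex V. Hepatocytes are rich in mitochondria, and they use the ATP for gluconeogenesis, urea synthesis and lipid handling. Most subunits are encoded in the nucleus and a few in mitochondrial DNA. The mitochondrially encoded subunits are not analysed here, so every statement concerns nuclear transcripts only.

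Gene counts summed to between 14704746 and 19462398 per library, and the subunits took 0.488 to 0.568% of them. The libraries were those of liver: the summed level of 7 hepatocyte markers was 77944 to 82272 TPM, a unit corrected for transcript length and library size, in the rAAV8-Scramble libraries and 71426 to 86747 TPM in the rAAV8-Hnf1aos1 libraries. Among these markers 4 of 7 had groups that did not overlap, 2 in each direction, and Tat, an amino acid-degrading enzyme, fell by 0.72 ± 0.12 on the log2 scale (adjusted p = 0.00766), a call lost only without rAAV8-Scramble replicate 3 among 14 alternative analyses. Normalized counts, that is counts scaled by edgeR's TMM factors to a common library size, of Hnf1aos1 itself were 512, 491 and 620 in the rAAV8-Scramble libraries and 278, 258 and 433 in the rAAV8-Hnf1aos1 libraries. The groups did not overlap, and the log2 fold change was -0.74 ± 0.20 (SE, n = 3 per group) with an adjusted p of 0.0625 by the quasi-likelihood test of edgeR (Benjamini-Hochberg over the 16327 genes), and of 0.00326 by DESeq2. Summed levels of 7 macrophage and Kupffer cell markers were 121 to 150 TPM in the rAAV8-Scramble and 153 to 202 TPM in the rAAV8-Hnf1aos1 libraries, and those of 13 skeletal muscle markers were 84.3 to 293 TPM and 34.1 to 94.4 TPM. All 7 macrophage markers had log2 fold changes above 0, and Clec4f and Adgre1 passed the test, while all 13 muscle markers were below 0, and Tcap and Actn3 passed. Of the alternative analyses, Clec4f was called in 9 of 14, Adgre1 in 4 of 14, Tcap in 7 of 13 and Actn3 in 11 of 14. Neither Adgre1 nor Tcap was called by DESeq2 or voom, and each of the 4 lost its call without rAAV8-Scramble replicate 2 or without replicate 3. None of these markers was at 0 in all libraries. The part of these cell types in the values of the subunits was not tested. In whole liver, fewer cells of a type and less RNA per cell cannot be told apart.

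No subunit of any complex passed the test. A gene was called when its adjusted p was under 0.05, which edgeR reached for 0 of the 77 subunits, while 6.32% of all genes tested were called, 3.09% higher and 3.23% lower in rAAV8-Hnf1aos1 liver. DESeq2 and limma's voom also called 0 subunits. At an unadjusted p under 0.05, edgeR had 7 subunits, or 9.09%, against 23.4% of all genes. DESeq2, which tested more genes of low count, had 5 of 86, or 5.81%, against 12.0% of all genes it tested. The groups did not overlap on normalized counts for 11 subunits, or 14.3%, against 28.9% of all genes. The median log2 fold change of the 77 subunits was 0.01, that of all genes was -4.0e-04, and single subunits lay between -0.23 and 0.46. The median size of the change without its sign was 0.09 for the subunits and 0.21 for all genes.

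The precision bounds what could have been missed. With TMM scaling, the 95% confidence interval of the log2 fold change lay within 1 of 0 for 77 of 77 subunits. A doubling or halving of any tested subunit was thus outside its interval under that scaling. Intervals were not taken with library sizes from spike-in RNA, described below, where Cox7a2 was at 0.66 ± 0.18. It lay within 0.5 of 0 for 70 subunits, and the 7 others were Ndufb3, Ndufb6, Ndufs6, Cox7a2, Cox7a2l, Atp5k and Atp5pb. The lowest bound was -0.62, for Atp5k, and the highest was 0.83, for Cox7a2. The interval typically reached 0.23 to each side of the estimate (median over the subunits). Changes of the size seen for Ndufb6, Ndufs6 and Cox7a2 did not pass the adjusted test with 3 mice per group.

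**Figure D1:**
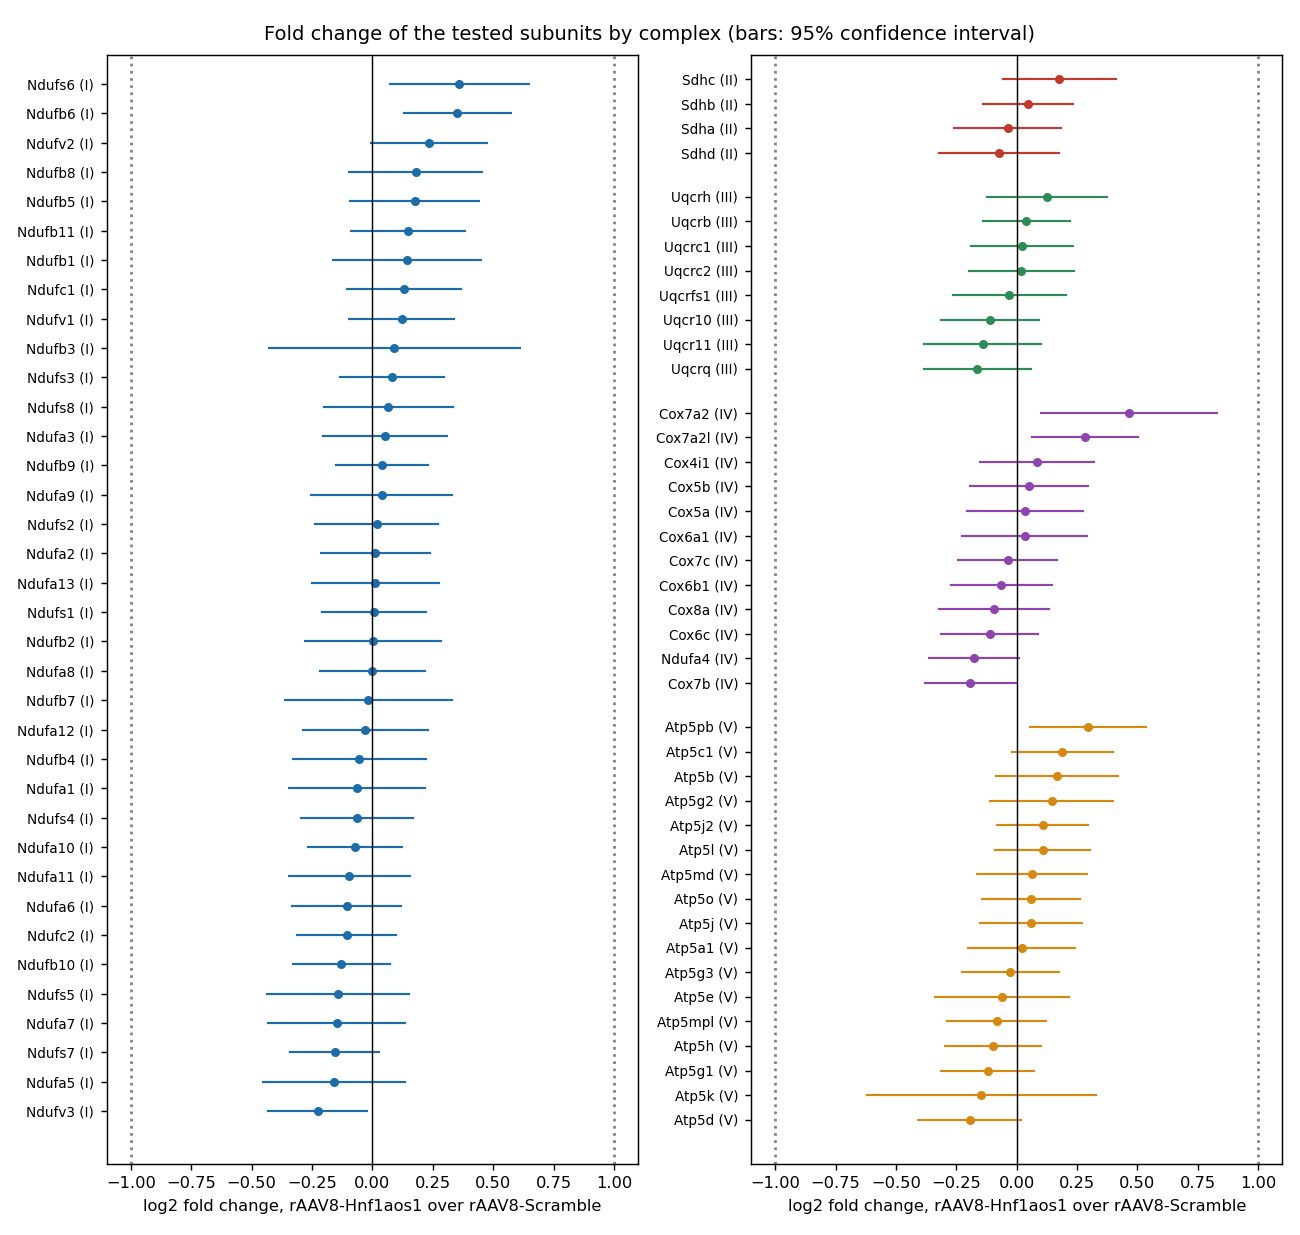
The log2 fold change of each of the 77 tested subunits, rAAV8-Hnf1aos1 over rAAV8-Scramble, is shown as a point with its 95% confidence interval, ordered within each complex and with dotted lines at 1 and -1. Points scatter on both sides of 0 in every complex, between -0.23 for Ndufv3 and 0.46 for Cox7a2, and no interval reaches a dotted line.

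Complex I, the NADH dehydrogenase, was measured through 36 tested subunits with a median log2 fold change of 0.01. The 7 conserved core subunits, which carry the flavin and the iron-sulfur clusters, had a median of 0.07, with 6 of 7 above 0. The 29 tested supernumerary subunits had a median of -4.7e-04, with 14 above and 15 below 0. Ndufb6, a subunit of the membrane arm (chr4:40270591-40279421), had normalized counts of 307, 355 and 311 in the rAAV8-Scramble libraries and 406, 424 and 410 in the rAAV8-Hnf1aos1 libraries. Every rAAV8-Hnf1aos1 value lay above every rAAV8-Scramble value, the log2 fold change was 0.35 ± 0.10, and its adjusted p of 0.0641 was the lowest of any subunit. Ndufs6, a zinc-binding subunit of the NADH-oxidizing arm (chr13:73319876-73328482), had 180, 212 and 177 normalized counts in rAAV8-Scramble and 218, 271 and 240 in rAAV8-Hnf1aos1 liver. These groups did not overlap either, by a margin of a few counts, and the log2 fold change of 0.36 ± 0.13 had an adjusted p of 0.125.

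At the other end of complex I was Ndufv3, a small supernumerary subunit of the NADH-oxidizing module. It had 692, 699 and 647 normalized counts in rAAV8-Scramble and 531, 583 and 627 in rAAV8-Hnf1aos1 liver, groups that did not overlap, with a log2 fold change of -0.23 ± 0.09 and an adjusted p of 0.172. Ndufa5, a subunit of the arm that joins NADH oxidation to the quinone site, had 143, 162 and 150 against 137, 127 and 142 normalized counts. Its groups were apart by less than 1 count, and the log2 fold change was -0.16 ± 0.13 with an adjusted p of 0.509. The 2 subunits with the highest and the 2 with the lowest values are supernumerary, as are 29 of the 36 tested subunits of complex I. At -0.16, Ndufa5 lay beside the core subunit Ndufs7. Ndufv2, a core iron-sulfur subunit, had the highest log2 fold change among the core, 0.23 ± 0.11 (adjusted p = 0.227), and Ndufs7, which holds the last cluster before coenzyme Q, had the lowest, -0.16 ± 0.08 (adjusted p = 0.290).

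Complex II, succinate dehydrogenase, is also an enzyme of the tricarboxylic acid cycle and has no mitochondrially encoded subunit, so all of it was measured. Sdha, the flavoprotein that oxidizes succinate, had 4515, 5117 and 4247 normalized counts in rAAV8-Scramble and 4220, 4584 and 4726 in rAAV8-Hnf1aos1 liver. The groups overlapped, with a log2 fold change of -0.04 ± 0.10 (adjusted p = 0.865). Sdhb, the iron-sulfur subunit, had 1524, 1648 and 1584 against 1585, 1593 and 1731, and a log2 fold change of 0.05 ± 0.08 (adjusted p = 0.790). The membrane anchors lay on either side of them. Sdhc had 1893, 2227 and 1708 against 2096, 2196 and 2296, and its log2 fold change of 0.18 ± 0.11 had an adjusted p of 0.342. Sdhd had 1657, 2062 and 1556 against 1534, 1725 and 1755, with a log2 fold change of -0.07 ± 0.11 (adjusted p = 0.748). In all 4 genes rAAV8-Scramble replicate 2 was the highest of its group, and the groups overlapped.

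Complex III, the cytochrome bc1 complex, ranged from -0.16 to 0.13 over 8 subunits, with 4 above and 4 below 0 and no subunit whose groups were apart. The large core proteins Uqcrc1 and Uqcrc2 had log2 fold changes of 0.02 ± 0.10 each, and Uqcrfs1, the Rieske iron-sulfur protein, -0.03 ± 0.11. Uqcrq, a small subunit near the quinone-binding side, had 1795, 2004 and 1886 normalized counts in rAAV8-Scramble and 1472, 1789 and 1816 in rAAV8-Hnf1aos1 liver. Only the first rAAV8-Hnf1aos1 library stood clearly below the control range, and the log2 fold change was -0.16 ± 0.10 (adjusted p = 0.359). Uqcr11 had 616, 649 and 564 against 483, 626 and 549 normalized counts, with a log2 fold change of -0.14 ± 0.11 (adjusted p = 0.473). Uqcrh, the acidic hinge protein that contacts cytochrome c1, had 634, 709 and 552 against 632, 668 and 768, and a log2 fold change of 0.13 ± 0.11 (adjusted p = 0.541). Uqcrb had 899, 835 and 866 against 906, 889 and 879, with a log2 fold change of 0.04 ± 0.08 (adjusted p = 0.811).

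Complex IV, cytochrome c oxidase, held the subunit with the highest value of the whole set. Cox7a2, the isoform of subunit VIIa used outside heart and muscle (chr9:79755241-79771422), had 772, 895 and 549 normalized counts in rAAV8-Scramble and 917, 1057 and 1083 in rAAV8-Hnf1aos1 liver. The groups were apart only by the gap between rAAV8-Scramble replicate 2 and rAAV8-Hnf1aos1 replicate 1, and the widest gap within a group was in the controls. The log2 fold change was 0.46 ± 0.16, with a 95% confidence interval from 0.10 to 0.83 and an adjusted p of 0.124, and with no filter on low counts the adjusted p was 0.0161. The RefSeq span of Cox7a2 overlaps that of Tmem30a, whose 24477 counts over the 6 libraries compare with 5336 for Cox7a2, and the strand setting of the counting is not stated, so the value is uncertain. Cox7a2l, a relative of Cox7a2 and an assembly or associated factor, had 665, 774 and 666 against 789, 850 and 923 normalized counts. These groups did not overlap, and the log2 fold change was 0.28 ± 0.10 with an adjusted p of 0.112.

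The lowest values of complex IV belonged to Cox7b and Ndufa4. Cox7b, encoded on the X chromosome, had 1411, 1413 and 1406 normalized counts in rAAV8-Scramble liver, almost the same in the 3 mice, and 1145, 1245 and 1312 in rAAV8-Hnf1aos1 liver. The groups did not overlap, and the log2 fold change was -0.19 ± 0.09 (adjusted p = 0.205). Ndufa4 had 1703, 1767 and 1743 against 1431, 1567 and 1609, again without overlap, and a log2 fold change of -0.18 ± 0.09 (adjusted p = 0.234). Complex IV as a whole had a median of -1.7e-03, with 6 of 12 tested subunits above 0 and 6 below.

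The isoforms of complex IV separated by tissue use. The widely expressed isoforms were all well detected: Cox4i1 at 162 ± 17.4 TPM, Cox6a1 at 263 ± 25.7 TPM, Cox6b1 at 437 ± 24.0 TPM and Cox8a at 365 ± 30.2 TPM (SD, n = 3) in rAAV8-Scramble liver. Their log2 fold changes were 0.08 ± 0.11, 0.03 ± 0.12, -0.06 ± 0.10 and -0.09 ± 0.10. The heart and muscle isoform Cox6a2 had 5, 21 and 13 raw counts in the rAAV8-Scramble libraries and 9, 9 and 2 in the rAAV8-Hnf1aos1 libraries. For Cox7a1 the raw counts were 6, 7 and 0 against 10, 5 and 9, and for Cox8b 3, 4 and 2 against 4, 0 and 4, too few for a test. The summed muscle markers were highest in rAAV8-Scramble replicate 2, at 293 TPM, and lowest in rAAV8-Hnf1aos1 replicate 3, at 34.1 TPM, the same libraries in which Cox6a2 was highest and lowest, and their part in the Cox6a2 counts was not tested. The lung isoform Cox4i2 had 1 count in each of 2 libraries, the testis isoform Cox6b2 had at most 7 counts, and Cox7b2 and Cox8c had 0 counts in all 6 libraries. Among complex I, the gene copies Ndufa11b, Ndufb4b, Ndufb4c and Ndufs6b had at most 9 counts in any library, and Ndufb11b had 0.

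Complex V, the ATP synthase, had the highest median of the 5 complexes, 0.06, with 10 of 17 subunits above 0. In the catalytic head, Atp5b, the β subunit that holds the active sites, had 8377, 10032 and 7824 normalized counts in rAAV8-Scramble and 9084, 10036 and 10313 in rAAV8-Hnf1aos1 liver. The groups overlapped, with a log2 fold change of 0.17 ± 0.11 (adjusted p = 0.413), while its partner Atp5a1, the α subunit, was at 0.02 ± 0.10 (adjusted p = 0.925). Of the central stalk, Atp5c1 (γ) had 1795, 2072 and 1709 against 2107, 2060 and 2187 normalized counts, with a log2 fold change of 0.19 ± 0.10 (adjusted p = 0.260). Atp5d (δ) went the other way in value, with 1755, 2014 and 1921 against 1488, 1769 and 1716 normalized counts and a log2 fold change of -0.19 ± 0.10 (adjusted p = 0.258).

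The peripheral stalk, which keeps the head from turning, held the subunit of complex V with the highest value. Atp5pb, its long b subunit (chr3:105942698-105959263), had 1518, 1837 and 1358 normalized counts in rAAV8-Scramble and 1882, 1968 and 1934 in rAAV8-Hnf1aos1 liver. The groups did not overlap, and the log2 fold change was 0.30 ± 0.11 with an adjusted p of 0.133. The other stalk subunits Atp5h, Atp5j and Atp5o were at -0.10, 0.06 and 0.06. A transcript of Atp5pb shares 696 bases at 95% identity or more with an annotated transcript of Wdr77, which had 2801 counts against 10569 for Atp5pb, so reads of the shared stretch may be assigned to either gene or dropped. The ring of c subunits is built from 3 genes that encode the same mature protein. Atp5g3 was the most abundant at 306 ± 11.6 TPM in rAAV8-Scramble liver, followed by Atp5g1 at 136 ± 4.91 TPM and Atp5g2 at 62.1 ± 5.59 TPM, a spacing well above the spread between mice. Atp5g1 had 1077, 1077 and 963 against 935, 938 and 994 normalized counts and a log2 fold change of -0.12 ± 0.09 (adjusted p = 0.435). Atp5g2 had 317, 284 and 322 against 302, 338 and 380 and a log2 fold change of 0.14 ± 0.12 (adjusted p = 0.486). Atp5g3 had 3312, 3486 and 3062 against 3060, 3275 and 3345, with a log2 fold change of -0.03 ± 0.09 (adjusted p = 0.893). The order of the 3 genes was the same in rAAV8-Hnf1aos1 liver, at 285, 118 and 64.9 TPM. The least counted subunit, Atp5k (subunit e), had 56.4, 67.0 and 85.8 against 55.3, 61.8 and 71.6 normalized counts and a log2 fold change of -0.15 ± 0.22 (adjusted p = 0.734).

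**Figure D2:**
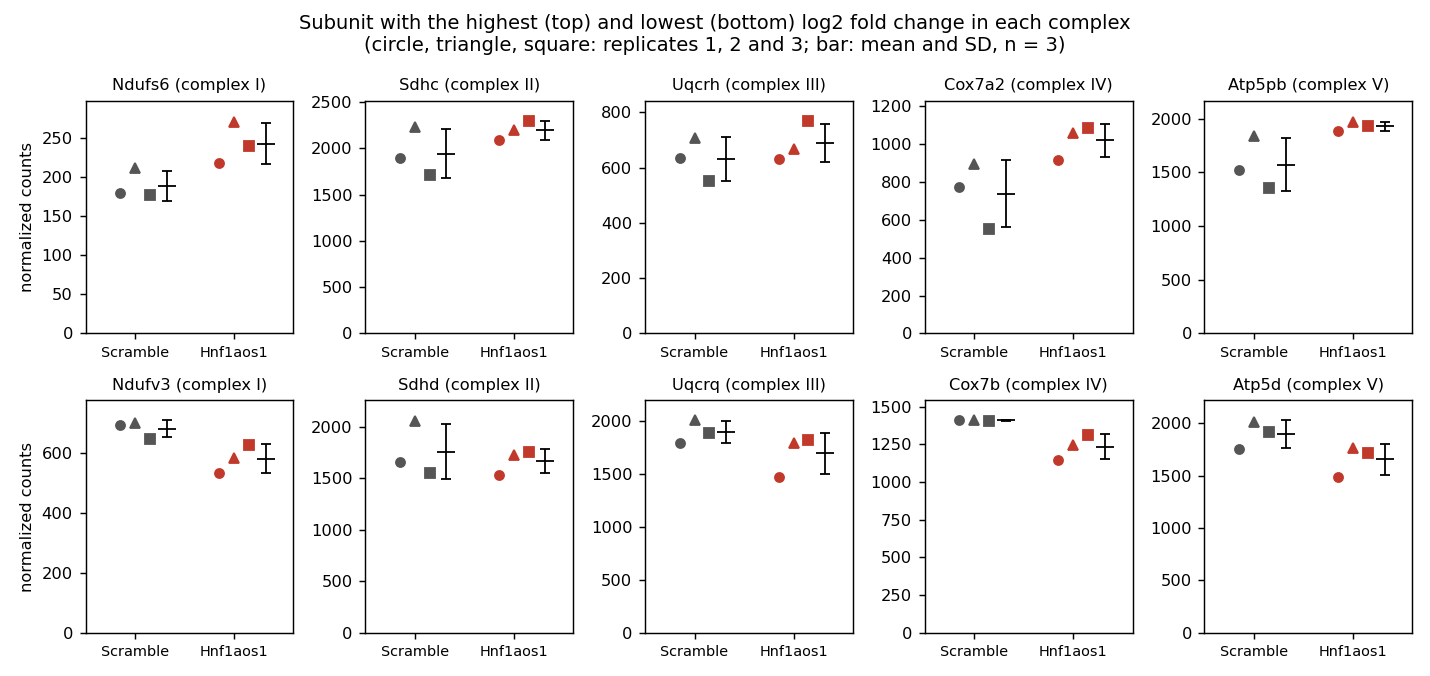
Normalized counts per library are shown for the subunit with the highest log2 fold change (top row) and the lowest (bottom row) in each complex, with the mean and SD of 3 libraries beside the points and axes that start at 0. The groups do not overlap for Ndufs6, Cox7a2, Atp5pb, Ndufv3 and Cox7b, and they overlap for Sdhc, Sdhd, Uqcrh, Uqcrq and Atp5d.

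Levels were compared between genes in the authors' TPM, which divide by transcript length. Together the 89 genes made up 1.03 to 1.13% of the TPM in rAAV8-Scramble and 0.990 to 1.06% in rAAV8-Hnf1aos1 liver. Their summed level was 10732 ± 536 against 10262 ± 358 TPM (SD, n = 3), a mean difference of -4.38%, while the sum of their TMM-normalized counts differed by 1.79% in the other direction. Both differences were smaller than the SD of the rAAV8-Scramble group, and their signs depend on the scaling. The most abundant subunits, over all 6 libraries, were Atp5b at 625 TPM and Atp5a1 at 522 TPM in complex V and Ndufa4 at 419 TPM and Cox6b1 at 416 TPM in complex IV. Levels differed widely within complex V, by 23.7-fold from Atp5b to Atp5k. In complex IV the range was 11.2-fold, down to Cox5a at 37.5 TPM, and in complex I 10.5-fold, from Ndufa3 at 176 TPM to Ndufa11 at 16.9 TPM. In TPM, complexes II and III were more even, with a range of 1.2-fold in complex II, from Sdha at 203 TPM to Sdhd at 169 TPM. In complex III it was 1.54-fold, from Uqcrb at 204 TPM to Uqcr10 at 132 TPM. These ranges depend on the length that the TPM assign to each gene. Cox5a and Cox5b had 5609 and 5536 counts over the 6 libraries but 37.5 and 205 TPM. Likewise Ndufa11 and Ndufa1 had 2116 and 1955 counts but 16.9 and 83.7 TPM. The lengths were not checked, so the low ends need not mean few transcripts. Ndufa3 had 429, 543 and 467 against 439, 524 and 529 normalized counts, with a log2 fold change of 0.05 ± 0.12 (adjusted p = 0.833).

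**Figure D3:**
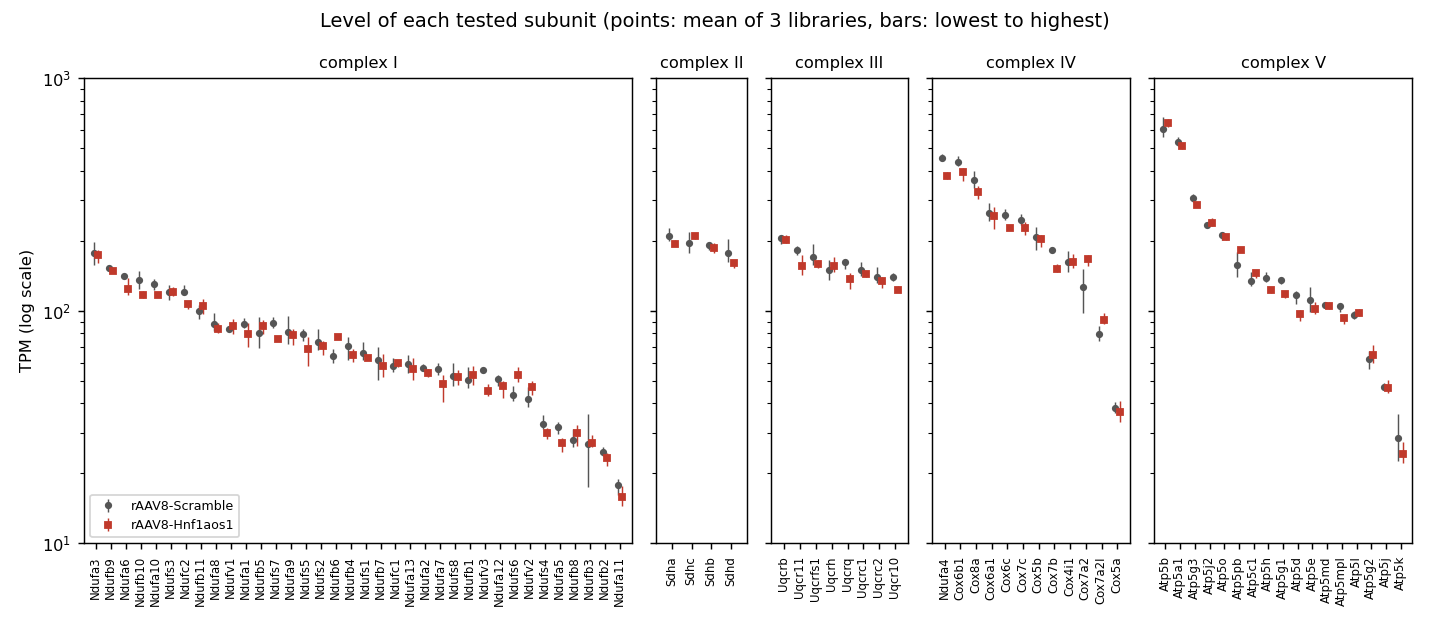
The level of each tested subunit in TPM, on a logarithmic axis, is shown by complex and group as the mean of 3 libraries with bars from the lowest to the highest library. TPM values span 10.5-fold in complex I, 11.2-fold in complex IV and 23.7-fold in complex V, but 1.2-fold in complex II and 1.54-fold in complex III. These spans depend on the length assigned to each gene. The 2 groups keep close to each other at each gene.

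The subunits varied together from mouse to mouse within the groups. In rAAV8-Scramble replicate 2, 61 of 77 subunits (79.2%) had the highest normalized count of their group, against 34.5% of all genes tested. In rAAV8-Hnf1aos1 replicate 1, 65 of 77 subunits (84.4%) had the lowest of their group, against 35.1% of all genes. The same held in smaller measure for rAAV8-Scramble replicate 3, lowest for 46 subunits (59.7% against 30.5%), and for rAAV8-Hnf1aos1 replicate 3, highest for 53 (68.8% against 34.3%). As a median over the subunits, the log2 difference from the mean of the rAAV8-Scramble group was -0.03, 0.12 and -0.09 in the rAAV8-Scramble libraries and -0.11, 0.04 and 0.08 in the rAAV8-Hnf1aos1 libraries. The libraries with the lowest and the highest rAAV8-Hnf1aos1 values thus lay about as far apart as the lowest and highest controls. The 5 complexes followed nearly the same course, and complex IV lay lowest in rAAV8-Hnf1aos1 replicate 1, at -0.19. For single subunits the median SD within groups was 0.12 on the log2 scale. It was 0.15 for the 11786 genes with a mean of at least 50 normalized counts. Those genes were not matched to the subunits for count level, and the part of level in this difference was not tested. These shares describe 6 libraries, and genes of 1 library are not independent replicates.

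**Figure D4:**
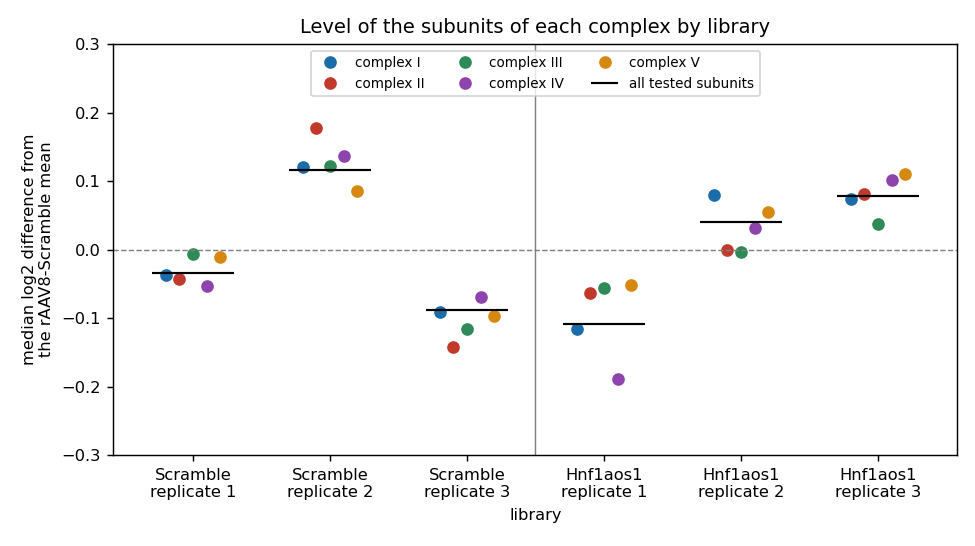
Each point is the median log2 difference of the tested subunits of 1 complex from the rAAV8-Scramble mean in 1 library, and the black lines are the medians over all 77 subunits. The complexes move together within each group, up in rAAV8-Scramble replicate 2 (0.12) and down in rAAV8-Hnf1aos1 replicate 1 (-0.11), so that the 2 groups overlap in every complex.

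The promoters of the subunits were searched, as a description, for 4 short motifs that are known from respiratory chain genes. Whether these motifs bear on the shared variation between libraries was not tested. RefSeq promoters of GRCm38.p6, from 250 bases before to 50 bases after a gene's start, were at hand for 65 of the 77 tested subunits, 70 promoters in all. The searched letters, on both strands, were CCGGAAG, the core bound by ETS factors such as GABP, TGCGCANGC, bound by NRF1, AAGATGGCG, bound by YY1, and CCAAT, bound by NF-Y, none of which contains another. CCGGAAG was in 17 promoters of subunits (24.3%) and in 8.86% of all 32851 promoters. TGCGCANGC was in 13 (18.6%) against 4.16%, and AAGATGGCG in 7 of the 70 against 1.40%. CCAAT, the shortest of them, was in 28 (40.0%) against 37.4%. At least 2 different motifs were in 24.3% of the subunit promoters and in 5.42% of all promoters. The background is all promoters at hand, not only those of genes tested in these livers, for which no share was taken. It is thus not known whether the subunits differ from other genes expressed in liver. A match is a description of the sequence and not evidence of binding in these livers.

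The promoters below show these arrangements, with matches to the searched letters in capitals, read from 5′ to 3′ along the gene's strand in RefSeq GRCm38.p6. Ndufs6 was chosen for a YY1 match just after the start of a gene with one of the highest values, Sdha for its pair of NRF1 matches, Cox6a1 for holding 3 different motifs, and Atp5b, the most abundant subunit, for 5 CCAAT matches and none of the other motifs.
Ndufs6 (chr13:73328433-73328732, minus strand): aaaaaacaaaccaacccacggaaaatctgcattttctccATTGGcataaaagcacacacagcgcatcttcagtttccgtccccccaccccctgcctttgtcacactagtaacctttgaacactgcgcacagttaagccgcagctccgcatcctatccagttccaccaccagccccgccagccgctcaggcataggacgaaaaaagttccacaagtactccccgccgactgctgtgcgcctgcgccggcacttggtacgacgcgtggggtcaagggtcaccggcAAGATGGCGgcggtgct
Sdha (chr13:74350191-74350490, minus strand): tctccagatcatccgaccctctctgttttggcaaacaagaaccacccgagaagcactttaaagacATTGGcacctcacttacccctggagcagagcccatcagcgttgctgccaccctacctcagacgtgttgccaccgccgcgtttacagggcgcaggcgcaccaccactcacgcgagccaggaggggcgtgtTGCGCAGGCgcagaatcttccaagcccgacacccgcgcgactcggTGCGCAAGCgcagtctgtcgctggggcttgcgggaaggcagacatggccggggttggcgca
Cox6a1 (chr5:115348909-115349208, minus strand): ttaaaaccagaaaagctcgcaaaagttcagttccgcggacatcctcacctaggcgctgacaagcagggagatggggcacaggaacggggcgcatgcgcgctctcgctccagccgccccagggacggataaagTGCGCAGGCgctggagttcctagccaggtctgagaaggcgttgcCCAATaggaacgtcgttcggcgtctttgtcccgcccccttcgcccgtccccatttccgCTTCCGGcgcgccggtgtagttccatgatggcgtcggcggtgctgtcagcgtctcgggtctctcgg
Atp5b (chr10:128083057-128083356, plus strand): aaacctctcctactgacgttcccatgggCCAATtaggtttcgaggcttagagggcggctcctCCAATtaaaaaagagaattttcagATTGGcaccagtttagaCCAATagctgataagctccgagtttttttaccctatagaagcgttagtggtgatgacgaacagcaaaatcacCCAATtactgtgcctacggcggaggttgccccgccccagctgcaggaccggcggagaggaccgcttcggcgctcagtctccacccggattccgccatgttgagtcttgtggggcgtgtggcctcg
The Cox7a2 promoter in the same table held none of the 4 motifs, which says only that these letters are not in that window. None of the 4 genes printed was called in the comparison, and the log2 fold changes of 0.36 for Ndufs6, -0.04 for Sdha, 0.03 for Cox6a1 and 0.17 for Atp5b go with different motif sets. YY1 matches were found in 5 of 34 complex I promoters and 2 of 18 complex V promoters and in none of the 18 promoters of complexes II, III and IV.

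The genes that act around the complexes were read from fixed lists. As a background for the calls in them, 3.09% of all genes tested were called higher and 3.23% lower. Of the transcription factors and coactivators that govern mitochondrial biogenesis, 1 of 17 was called, Esrrg, the estrogen-related receptor γ, with 55.4, 114 and 122 normalized counts in rAAV8-Scramble and 41.0, 28.5 and 41.7 in rAAV8-Hnf1aos1 liver. It fell by 1.38 ± 0.30 on the log2 scale (adjusted p = 0.0280), a call made in 9 of 14 alternative analyses and lost with voom and without rAAV8-Scramble replicate 2 or 3 or rAAV8-Hnf1aos1 replicate 1 or 2. Of the factors that bind the motifs above, Nrf1 was at -0.04 ± 0.11, Gabpa at 0.03 ± 0.09 and Yy1 at -0.08 ± 0.08. None of these was called, and the genes of NF-Y were not on the list. The RefSeq span of Gabpa overlaps that of Atp5j, so its value is less certain. The coactivator Ppargc1a was at -0.34 ± 0.14 (adjusted p = 0.165), Esrra at -0.01 ± 0.11, and Tfam, which packages and transcribes mitochondrial DNA, at 0.16 ± 0.12 (adjusted p = 0.434). Myc was at 2.24 ± 0.66 with an adjusted p of 0.138, and its groups did not overlap. The list's median was -0.03.

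Assembly factors, the chaperones that build the complexes without staying in them, had a median log2 fold change of 0.06 over 52 tested genes, and 1 was called. This was Foxred1, a complex I assembly factor, with 342, 336 and 305 normalized counts in rAAV8-Scramble and 414, 430 and 439 in rAAV8-Hnf1aos1 liver. It rose by 0.38 ± 0.10 (adjusted p = 0.0421), but the call was made in only 6 of 14 alternative analyses and lost without any 1 of the 6 libraries, and DESeq2 gave an adjusted p of 0.0785. At an unadjusted p under 0.05 in edgeR, the list had 8 genes, or 15.4%, against 23.4% of all genes in either direction. All 8 were above 0, and of all 16327 genes 1958 were above 0 at that p. In the tricarboxylic acid cycle, which supplies NADH and succinate, 2 of 17 genes were called and both fell, against 3.23% of all genes called lower. Idh2, the mitochondrial NADP-dependent isocitrate dehydrogenase, had 746, 945 and 765 against 529, 649 and 618 normalized counts and a log2 fold change of -0.45 ± 0.12 (adjusted p = 0.0439). Dlat, the acetyltransferase of the pyruvate dehydrogenase complex, had 787, 1031 and 966 against 634, 641 and 705 and a log2 fold change of -0.49 ± 0.11 (adjusted p = 0.0281). Dlat lost its call without rAAV8-Scramble replicate 2 or 3 or rAAV8-Hnf1aos1 replicate 1 or 2, and Idh2 without any library but rAAV8-Hnf1aos1 replicate 3. The list's median was -0.01. Beyond these, 0 of 13 genes of coenzyme Q synthesis were called by edgeR and 1 had an unadjusted p under 0.05, with a median of 0.01. Of the carriers and channels that exchange ADP, phosphate and metabolites, 7 of 11 were tested, 0 were called and 0 had an unadjusted p under 0.05, with a median of 0.04.

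A few subunits and partners lie outside the symbols used. Cyc1 (cytochrome c1) was at 0.04 ± 0.12, Cycs (cytochrome c) at 0.21 ± 0.10 (adjusted p = 0.251), Ndufab1 (the acyl carrier subunit of complex I) at 0.11 ± 0.10 and Atpif1 (the inhibitor of ATP synthase) at 0.01 ± 0.17, and none was called. The proteins of mitochondrial ribosomes, which translate the mitochondrially encoded subunits, had a median of 0.07 over 78 genes with 1 called, Mrps23, at 0.56 ± 0.14 (adjusted p = 0.0375). For comparison, cytosolic ribosomal proteins had a median of 0.15 over 82 genes, with 5 called higher and 0 lower (all genes: 3.09% and 3.23%). Both medians, like the subunits' own, rest on libraries scaled by TMM.

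**Figure D5:**
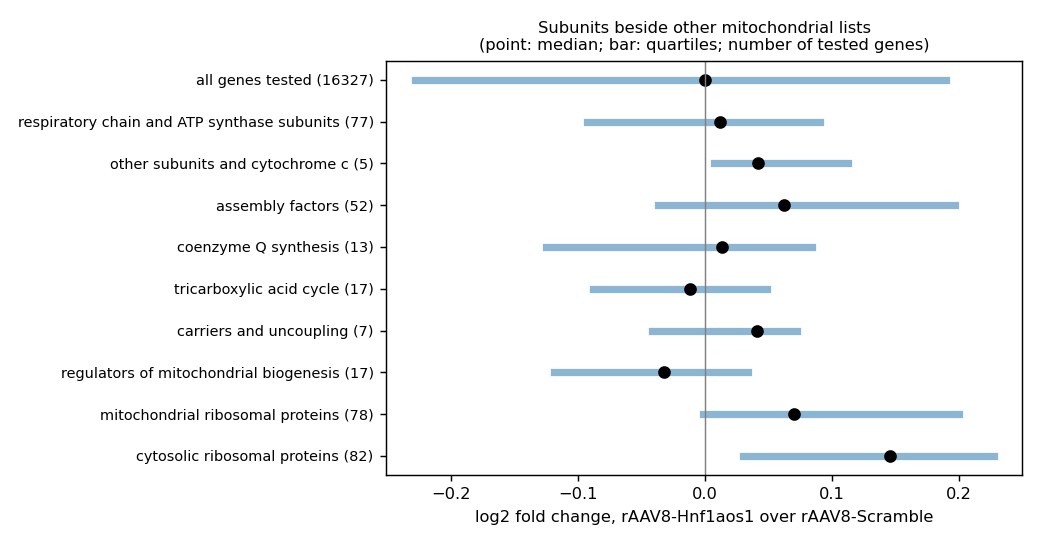
Median log2 fold changes (points) and quartiles (bars) are shown for the subunits, for all genes tested and for the surrounding lists, with the number of tested genes in brackets. The subunits have a median of 0.01, the cytosolic ribosomal proteins lie farthest to the right at 0.15, and all the lists stay within the quartiles of all genes except for the upper ends of the assembly factors and both ribosomal lists.

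The scaling of the libraries bears on all of these values. The libraries also held synthetic ERCC spike-in RNA, which took 1.38 to 1.52% of the counts in rAAV8-Scramble and 1.18 to 1.24% in rAAV8-Hnf1aos1 libraries. With library sizes taken from the spike-ins, the median of all genes shifted to 0.20 and that of the subunits to 0.21, and edgeR then called 10 subunits higher, or as a background 18.6% of all genes, and 0 lower. The 10 were Cox7a2, Ndufs6, Ndufb6, Atp5pb, Cox7a2l, Ndufv2, Atp5c1, Sdhc, Atp5j2 and Atp5l, at log2 fold changes from 0.31 for Atp5l to 0.66 for Cox7a2. Relative to the median of all genes under that scaling, the subunits as a set stood 0.01 apart, as they did under TMM. A change of library sizes shifts all genes by nearly the same amount, so this likeness was fixed in advance.

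Some subunits also share sequence with other annotated genes. By alignment of annotated transcripts, 29 of the 77 tested subunits share at least 150 bases at 95% identity or more with another annotated gene, 20 of them with a pseudogene, and 48 do not. These matches are not all copies elsewhere in the genome. Tssk6, matched to Ndufa13, and Pdzd9, matched to Uqcrc2, overlap those subunits in position. Atp5md matched 20 genes, over 178 bases at most. For 6 of the 29, the matching genes had counts above 5% of the subunit's own. Among them was Ndufb6, which shares 257 bases with Smim27 (229 counts against 2230). The RefSeq spans of 22 tested subunits overlap another gene of the count table, for 13 of them a gene with at least 100 counts over the 6 libraries. Besides Cox7a2 these include Ndufv2, which overlaps Ankrd12 (1681 counts against 3468), Ndufb11, which overlaps Rbm10 (2727 against 4452), and Atp5j, which overlaps Gabpa (6027 against 4308). The counts were of uniquely mapped reads, so reads from shared stretches may be missing, and without a stated strand setting reads of overlapping genes cannot be told apart. The values of these genes are less certain than the replicate error shows.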

How the data were processed

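Whole liver RNA of 6 mice was sequenced in pairs of 150-base reads. Per the study's methods, the authors trimmed reads with Trimmomatic, used STAR to align them to GRCm38 and featureCounts to count unique exonic reads; the labels name GRCm39, and describe depletion of ribosomal RNA where the methods describe a poly(A) kit. The deposited raw counts are whole numbers without normalization, and the deposited TPM values were used only for levels between genes. Authors' normalized counts and a table of their log2 fold changes and p-values were not used. The 92 ERCC rows were left out. In R 4.3.3, edgeR 4.0.16 (TMM, filterByExpr, robust quasi-likelihood fits, group as the only term) tested 16327 of 40803 genes with Benjamini-Hochberg adjustment; DESeq2 1.42.0, limma 3.58.1 voom, other scalings, filters, a replicate block and leaving out each library were alternatives. SE is the log2 fold change divided by the root of its F value. Normalized counts are relative to the mean of the 6 TMM-scaled library sizes. Transcripts were aligned with BLAST+ 2.17.0 and figures drawn with matplotlib 3.10.9. Positions and promoters are from RefSeq GRCm38.p6 by symbol. The code was tested on simulated data.

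Groups came from the sample labels. Replicates were separate mice, and p-values measure the spread between them. The chi-square per gene between libraries of a group was 7.73 to 31.9, against about 1 for sampling noise alone, so none was merged. Gene totals were 14704746 to 19462398 per library. Counting error depends on the count of each gene. For subunits of low count, such as Atp5k, it need not be small beside the spread between mice. The subunits and lists were chosen with earlier results of these data known. Values in every library were to be given for called subunits, the 2 highest and 2 lowest of each complex, tissue isoforms, Sdh genes, c subunit genes and the most abundant member of each complex, and of other genes for Hnf1aos1 and up to 5 called genes a list and direction. The 5 called cytosolic ribosomal genes are given as a count only. Other genes named with values were chosen after those were seen.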

Additional observations from a re-analysis of the deposited data

How the results depend on the processing

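With every alternative except 2, edgeR, DESeq2 and voom called 0 subunits in either direction. Library sizes from the spike-ins gave 10 called higher, with medians of 0.21, 0.20, 0.19, 0.20 and 0.26 for complexes I to V, and no filter on low counts gave 1, Cox7a2, while all genes called numbered 3394 and 1902. With spike-in sizes 34 of the 77 subunits changed sign and with library totals 20, and those among the genes with values in every library were, with spike-in sizes, Ndufa5 (0.041), Sdhd (0.12), Sdha (0.16), Uqcrq (0.038), Uqcr11 (0.059), Cox7b (0.010), Ndufa4 (0.023), Atp5d (0.0056), Atp5k (0.057), Cox6b1 (0.14), Cox8a (0.11), Atp5g1 (0.080) and Atp5g3 (0.17), and, with library totals, Sdhb (-0.026), Uqcrb (-0.031), Ndufa3 (-0.021) and Cox6a1 (-0.039). The cause was not tested beyond the shift of all genes by 0.20 with spike-in sizes and -0.07 with library totals. Leaving out 1 library at a time called 0 subunits in all 6 fits, with medians of the 77 to 79 tested subunits from -0.03 to 0.07 and a lowest adjusted p of 0.0554 (Atp5pb, without rAAV8-Scramble replicate 2). Calls among all genes ranged from 103 (without rAAV8-Scramble replicate 3) to 1881 (without rAAV8-Hnf1aos1 replicate 3). In these fits 4 to 13 subunits changed sign, among them Sdhd (-0.16 to 0.052), Sdha (-0.10 to 0.037), Ndufa3 (-0.021 to 0.14), Cox6a1 (-0.047 to 0.13), Cox6b1 (-0.11 to 0.012), Atp5g3 (-0.081 to 0.013) and Atp5k (-0.28 to 0.023), each range over the 6 fits. Foxred1 lost its call without any 1 library, Idh2 without any but rAAV8-Hnf1aos1 replicate 3, and Dlat and Esrrg without rAAV8-Scramble replicate 2 or 3 or rAAV8-Hnf1aos1 replicate 1 or 2. Foxred1 also lost it with library totals and DESeq2, Esrrg and Idh2 with voom, and Idh2 and Dlat with spike-in sizes. Hnf1aos1 was called with DESeq2, voom, no filter, the block below and without rAAV8-Hnf1aos1 replicate 3. The tissue-limited isoforms of complex IV were not among the 12 genes of the median of -1.7e-03, so leaving them out gave the same value. With no filter and with DESeq2, 17 genes of complex IV were tested and the median was -0.07 and -0.06.

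Equal replicate numbers did not pair the mice: deviations of same-numbered libraries correlated at -0.02, 0.02 and 3.2e-03. With the replicate block edgeR called 878 genes and 0 subunits (1032 genes and 0 subunits without it), and Foxred1 was no longer called.

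Limits: with 3 mice per group no estimate among the subunits, up to 0.46 on the log2 scale, passed the adjusted test, mitochondrially encoded subunits are not analysed here, and transcript levels do not measure protein or respiration.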
